A study of Mus musculus with 29 samples.

Results

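The insulin axis is represented here by 3 genes of mouse liver, and the data are binding sites of 2 transcription factors in a window around each gene. Irs1 and Irs2 encode insulin receptor substrates, the docking proteins that the activated insulin receptor phosphorylates and through which it reaches the PI3-kinase and Akt pathway. Igfbp1 encodes a secreted protein that binds insulin-like growth factors. The windows, in the mm9 build, were chromosome 1 from 82.17 to 82.34 Mb for Irs1, chromosome 8 from 10.93 to 11.06 Mb for Irs2 and chromosome 11 from 7.05 to 7.15 Mb for Igfbp1, with lengths of 170, 130 and 100 kb. Each peak and each ChIP-exo border with its centre in a window was taken, and peaks of the 9 ChIP-seq lists that overlapped by at least 1 bp were merged into regions. This gave 30 regions of 33432 in the whole series, 11 in the Irs1 window, 14 in the Irs2 window and 5 in the Igfbp1 window. Assignment to a gene rests on the window alone, since no mm9 annotation was used, and whether a region is exonic, intronic or intergenic is not stated here.

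The glucocorticoid receptor (GR) was mapped with ChIP-seq and with ChIP-exo. Livers came from male mice, 12 weeks old, crossed back to BALB/c for at least 4 generations and kept on a light cycle of 12 h. The mice were either GR+/+ littermates, here called WT, or carried GRdim, a mutation of the receptor known to impair its dimerization. The 3 conditions were 6am (light phase begins), 6pm (dark phase begins) and 6am following prednisolone, a synthetic glucocorticoid given for 24 h from subcutaneous pellets at 12 mg/kg. ChIP-seq of the transcription factor C/EBPβ covered WT alone under all 3 conditions. The labels describe each list as a pool made from 2 replicates, so every value is 1 measurement with no spread between animals, and no p-value is given. The files hold binding sites and no transcripts, so the tissue was not checked against marker RNAs and no value here is an expression level.

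As background, insulin and glucocorticoids have opposing actions on glucose output of the liver. GR is a ligand-activated receptor that binds DNA at glucocorticoid response elements, either as a dimer on paired hexamers or in other arrangements. Igfbp1 is a textbook gene of this axis: glucocorticoids raise its transcription, and insulin lowers it through an insulin response element bound by FOXO proteins. In the RefSeq gene order of GRCm38.p6 the protein-coding neighbours of Igfbp1 are Adcy1 before it and Igfbp3 after it. Igfbp3 encodes another binding protein of insulin-like growth factors. Regions of that window may lie nearer to Adcy1 or to Igfbp3 than to Igfbp1. The neighbours are Nyap2 and Rhbdd1 for Irs1 and Myo16 and Col4a1 for Irs2.

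The promoters of the 3 genes are shown because letters of the insulin response element can be read in them, both parts in Igfbp1 and the first part alone in Irs1 and Irs2. The E-box, a site for helix-loop-helix factors, can be read in Irs1 and Irs2 and not in Igfbp1. They are the 250 bases before the gene start in RefSeq for GRCm38.p6, written 5′ to 3′ along the gene, with matched motifs in capitals. Irs1 lies on the minus strand of chromosome 1, Irs2 on the minus strand of chromosome 8 and Igfbp1 on the plus strand of chromosome 11.
Irs1: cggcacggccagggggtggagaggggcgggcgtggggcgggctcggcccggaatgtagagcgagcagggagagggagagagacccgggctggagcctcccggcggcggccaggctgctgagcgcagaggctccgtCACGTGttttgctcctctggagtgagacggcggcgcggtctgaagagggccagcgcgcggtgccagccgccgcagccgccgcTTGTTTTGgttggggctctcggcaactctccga
Irs2: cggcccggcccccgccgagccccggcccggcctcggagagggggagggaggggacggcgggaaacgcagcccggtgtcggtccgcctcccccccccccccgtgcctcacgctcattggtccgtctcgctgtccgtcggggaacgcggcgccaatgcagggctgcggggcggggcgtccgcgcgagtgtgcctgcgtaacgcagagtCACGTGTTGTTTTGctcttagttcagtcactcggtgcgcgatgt
Igfbp1: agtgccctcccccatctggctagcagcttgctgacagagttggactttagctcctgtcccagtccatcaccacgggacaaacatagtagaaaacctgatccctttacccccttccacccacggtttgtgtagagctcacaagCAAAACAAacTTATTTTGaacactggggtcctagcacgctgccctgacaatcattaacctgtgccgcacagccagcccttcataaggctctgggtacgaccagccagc
The motifs searched on both strands were AGAACA (the GR hexamer), TTGCNNAA (a C/EBP palindrome), CAAAACAA and TTATTTTG (the first and second parts of the insulin response element, taken from the known site of Igfbp1) and CACGTG (the E-box). CAAAACAA was found in each of the 3 promoters and in 2.21% of 32851 promoters of the same length. The matches of both parts in Igfbp1 follow from taking the letters there, so only the Irs promoters were open to either outcome. CAAAACAA starts 108 bases before the gene start in Igfbp1, with TTATTTTG following at 98 bases. In the Irs genes it is on the other strand, at 33 bases in Irs1 and 38 bases in Irs2. TTATTTTG was found in Igfbp1 and not in the Irs promoters (1.49% of all promoters). CACGTG was found in Irs1 at 115 bases and in Irs2 at 44 bases and in 6.02% of all promoters. The longest run of letters common to the Irs1 and Irs2 promoters was GTCACGTGTT, of 10 bases, which overlaps the E-box and was present in 0.0700% of promoters. That run was picked from these promoters, so its share is a description and not a test. AGAACA and TTGCNNAA were in none of the 3 windows of 250 bases, and in 16.1% and 9.56% of all promoters. The peaks are in mm9 and were not placed against these starts.

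Of the 30 regions, 26 held a C/EBPβ peak and 21 a GR peak, and 17 held both. The shares of such regions over the whole series are not given here. These counts, and those by window below, are therefore a description alone. Regions are lettered along the chromosome within each window, so that Irs1-A has the lowest position. A peak's score is the authors' own, the sources used here do not give its unit, and no list goes below 2.00, so a region that is not listed may still be bound weakly. Scores of several lists are set side by side as a description, since it is not known whether they share a scale. Within the windows the WT GR lists had 15 peaks (6am), 19 peaks (6pm) and 13 peaks (prednisolone), against 9, 14 and 5 for GRdim. The whole lists held 5781, 14270 and 4304 WT peaks and 3183, 7440 and 3208 GRdim peaks. C/EBPβ had 20, 24 and 22 peaks in the windows, of 21644, 26226 and 21941 in its whole lists.

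Listing differed between the windows. In the Igfbp1 window all 5 regions held GR and C/EBPβ in some list, 4 were in each WT GR list and 2, Igfbp1-A and Igfbp1-C, were in each of the 9 lists. In the Irs1 window 7 of 11 regions held GR, and Irs1-A was in each of the 9 lists. In the Irs2 window 9 of 14 held GR, and no region was in each of the 6 GR lists, because the GRdim list after prednisolone had no peak there. GR without C/EBPβ was seen at 4 regions (Irs1-C, Irs1-H, Irs2-F and Irs2-K) and C/EBPβ without GR at 9.

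**Figure D1:**
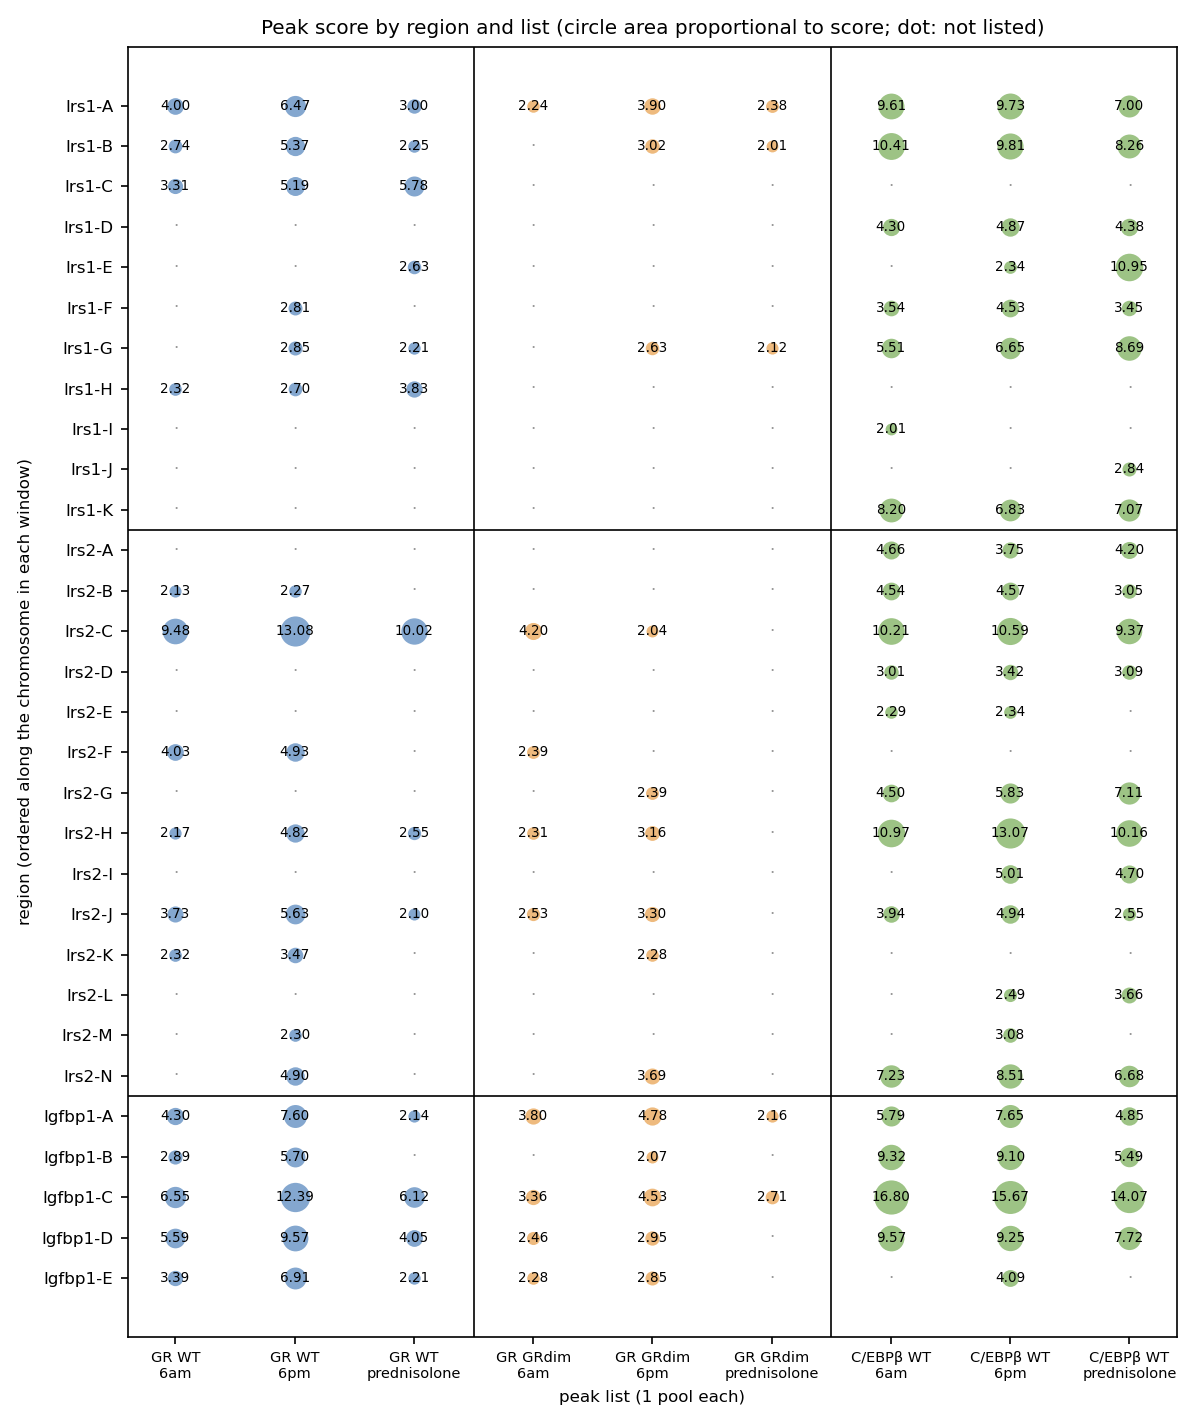
Score of each peak (number and circle area) for the 30 regions of the 3 windows (rows, in chromosome order) in the 6 GR and 3 C/EBPβ lists (columns, 1 pool each); a dot marks a region not listed. Irs1-C and Irs1-H have GR scores in the 3 WT columns and none in the GRdim or C/EBPβ columns, and the GRdim prednisolone column is empty in the Irs2 window.

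Of the 22 C/EBPβ peaks listed after prednisolone, 4 had no 6am peak (18.2%), at Irs1-E, Irs1-J, Irs2-I and Irs2-L, against 22.3% of the whole list. By window the new peaks were 2 of 8 for Irs1, 2 of 10 for Irs2 and 0 of 4 for Igfbp1, and the share in the windows was near that of the list. Of these 4 regions, Irs1-J was in neither untreated list, and the other 3 were listed at 6pm.

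Irs1-E, chr1:82199313-82199551, had the highest score of the 4. C/EBPβ was not listed there at 6am, had a score of 2.34 at 6pm (rank 22605 of 26226) and a score of 10.95 after prednisolone (rank 546 of 21941). It was second by score among the 4886 new peaks, whose median score was 2.59. The nearest 6am C/EBPβ peak was centred 13849 bp away. WT GR was listed at the same region after prednisolone with a score of 2.63 and in no other GR list. WT ChIP-exo gave the same listing: 5 GR borders within 100 bp of the centre after prednisolone, with 71 tags (1.3 RPM, the tags per M tags of the library). Over the whole region that library had 101 tags (1.85 RPM). No WT border was listed there at 6am or 6pm. The GRdim libraries had 1 border there, of 9 tags after prednisolone.

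The other new C/EBPβ peaks scored lower. Irs2-I, chr8:11008875-11009079, had 5.01 at 6pm and 4.70 after prednisolone, and its nearest 6am peak was 947 bp away. Irs2-L, chr8:11012208-11012412, had 2.49 and 3.66. Irs1-J, chr1:82276705-82276904, had 2.84 after prednisolone. No GR peak of any list overlapped these 3 regions. At 2 further regions C/EBPβ was listed under each condition with its highest score after prednisolone: Irs1-G with 5.51 at 6am, 6.65 at 6pm and 8.69 after prednisolone, and Irs2-G with 4.50, 5.83 and 7.11.

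C/EBPβ peaks of 6am missing after prednisolone numbered 2 of 20 (10.0%, against 21.2% of the whole list). They were Irs1-I and Irs2-E, with 6am scores of 2.01 and 2.29, close to the lowest score of the list. At 6pm 5 of 24 C/EBPβ peaks had no 6am peak (20.8%, against 22.9%). They were Irs1-E, Irs2-I, Irs2-L, Irs2-M with 3.08 and Igfbp1-E with 4.09. Igfbp1-E and Irs2-M were thus listed for C/EBPβ at 6pm alone.

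**Figure D2:**
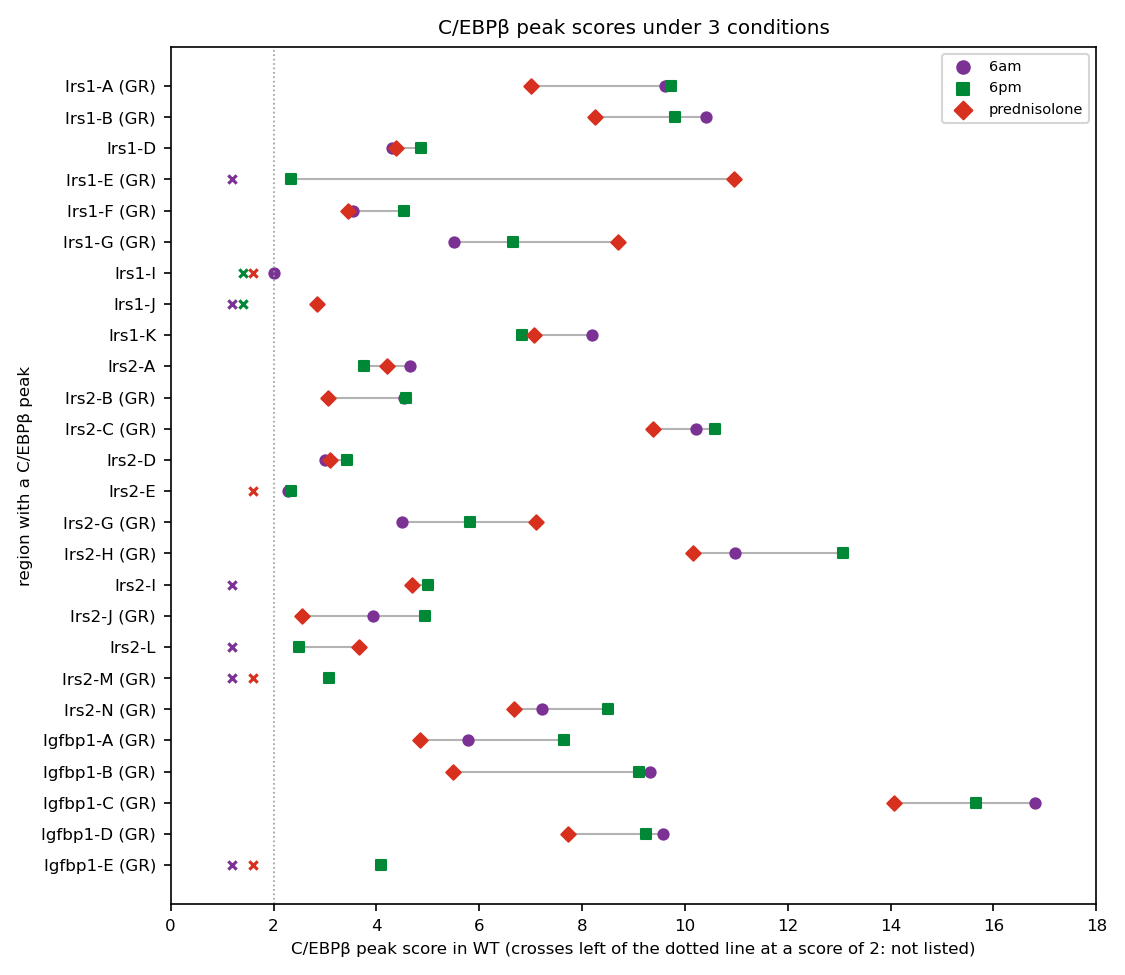
C/EBPβ peak score in WT (horizontal axis, unit not given) for the 26 regions with a C/EBPβ peak; circles are 6am, squares 6pm and diamonds prednisolone, crosses at the left mark lists without the region, and (GR) marks regions that also held a GR peak. Irs1-E lies at 2.34 at 6pm and 10.95 after prednisolone, while Igfbp1-C lies between 14.07 and 16.80.

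Apart from Irs1-E, the regions with the 3 highest C/EBPβ scores of each window were listed under each condition. Igfbp1-C, chr11:7092766-7093063, scored 16.80 at 6am (rank 46 of 21644), 15.67 at 6pm and 14.07 after prednisolone. Irs2-H, chr8:10974176-10974426, scored 10.97, 13.07 and 10.16. Irs1-B, chr1:82180533-82180954, scored 10.41, 9.81 and 8.26. At Irs1-A C/EBPβ scored 9.61, 9.73 and 7.0, at Irs2-N 7.23, 8.51 and 6.68, at Igfbp1-D 9.57, 9.25 and 7.72 and at Igfbp1-B 9.32, 9.10 and 5.49. Igfbp1-C, Irs2-H and Irs1-B also held WT GR in the 3 lists, with GR scores of 6.55, 12.39 and 6.12 at Igfbp1-C, of 2.17, 4.82 and 2.55 at Irs2-H and of 2.74, 5.37 and 2.25 at Irs1-B. Irs1-K, chr1:82290808-82291013, was different: C/EBPβ scored 8.20, 6.83 and 7.07, and no GR list held it.

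GR and C/EBPβ peaks of the same condition were compared for shared regions. A C/EBPβ peak overlapped 9 of 15 WT GR peaks at 6am (60%, against 79.7% of the whole list), 15 of 19 at 6pm (78.9%, against 83.2%) and 10 of 13 after prednisolone (76.9%, against 75.7%). C/EBPβ peaks held a WT GR peak in 9 of 20 cases at 6am (45%, against 21.3%), 15 of 24 at 6pm (62.5%, against 45.3%) and 10 of 22 after prednisolone (45.5%, against 14.8%). In the Igfbp1 window the C/EBPβ peaks with GR were 4 of 4, 5 of 5 and 3 of 4. Whether the windows differ from the rest of the lists was not tested. At 2 of the 4 regions with GR and no C/EBPβ overlap, a C/EBPβ region lay next to it: Irs1-D was centred 269 bp from Irs1-C, and Irs2-G 275 bp from Irs2-F.

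GR binding in WT after prednisolone was listed at 2 regions that 6am lacked, both in the Irs1 window. This was 2 of 13 peaks (15.4%, against 25.8% of the whole list). Beside Irs1-E it was Irs1-G, chr1:82234855-82235137, which scored 2.21 after prednisolone and 2.85 at 6pm. Of the 15 peaks of 6am, 4 were not listed after prednisolone (26.7%, against 44.8%): Irs2-F with a 6am score of 4.03, Igfbp1-B with 2.89, Irs2-K with 2.32 and Irs2-B with 2.13. None of these 4 lay in the Irs1 window. With lists of equal length by score, 4 of 13 window peaks were new and 2 of 11 were not listed after prednisolone. With windows wider by 20 kb per side, 8 of 19 were not listed after prednisolone (42.1%). The Irs1 window held 4 WT GR peaks at 6am and 6 after prednisolone, the Irs2 window 6 and 3, and the Igfbp1 window 5 and 4.

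The highest GR scores of the windows were at Irs2-C and Igfbp1-C. Irs2-C, chr8:10939948-10940174, scored 9.48 in WT at 6am (rank 171 of 5781), 13.08 at 6pm (rank 219 of 14270) and 10.02 after prednisolone (rank 191 of 4304). In GRdim it scored 4.20 at 6am and 2.04 at 6pm and was not listed after prednisolone, where the nearest GRdim peak was 60325 bp away from the WT peak. C/EBPβ scored 10.21, 10.59 and 9.37 at Irs2-C, so C/EBPβ was listed there in WT throughout. Irs2-J, chr8:11009801-11010048, scored 3.73, 5.63 and 2.10 in WT, and 2.53 and 3.30 in GRdim at 6am and 6pm. Irs2-F, chr8:10965402-10965615, scored 4.03 and 4.93 in WT at 6am and 6pm and 2.39 in GRdim at 6am. In WT both scored below Irs2-C in each list that held them, whereas in GRdim at 6pm Irs2-J (3.30) scored above Irs2-C (2.04).

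In the Irs1 window the 3 highest WT scores were those of Irs1-A, Irs1-C and Irs1-B. Irs1-A, chr1:82177025-82177296, had WT scores of 4.00 (6am), 6.47 (6pm) and 3.00 (prednisolone), with GRdim scores of 2.24, 3.90 and 2.38. Irs1-C scored 3.31 (rank 2151), 5.19 (rank 3086) and 5.78 (rank 577) in WT, and Irs1-H scored 2.32, 2.70 and 3.83. Irs1-C and Irs1-H thus had their highest score after prednisolone, whereas Irs1-A and Irs1-B had it at 6pm. In the Igfbp1 window the highest were Igfbp1-C, Igfbp1-D and Igfbp1-A. Igfbp1-C scored 3.36, 4.53 and 2.71 in GRdim. Igfbp1-A, chr11:7052421-7052706, scored 4.30, 7.60 and 2.14 in WT and 3.80, 4.78 and 2.16 in GRdim. Igfbp1-D, chr11:7094591-7094859, scored 5.59, 9.57 and 4.05 in WT, 2.46 and 2.95 in GRdim at 6am and 6pm, and was not listed in GRdim after prednisolone.

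At 6pm the WT list held 4 window peaks that 6am lacked, of 19 (21.1%, against 60.5% of the whole list). They were Irs2-N with 4.90, Irs1-G, Irs1-F with 2.81 and Irs2-M with 2.30. With lists of equal length the count came to 1 of 13, and with windows wider by 20 kb per side to 13 of 32 (40.6%). In the Igfbp1 window the same 5 regions were listed at 6am and 6pm, with scores of 3.39, 2.89, 4.30, 5.59 and 6.55 at 6am for Igfbp1-E, -B, -A, -D and -C and of 6.91, 5.70, 7.60, 9.57 and 12.39 at 6pm.

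WT and GRdim were compared to see which regions the mutant receptor was listed at. In the windows 6 of 15 WT peaks had no GRdim peak at 6am (40%, against 52.5% of the whole list), 6 of 19 at 6pm (31.6%, against 50.6%) and 8 of 13 after prednisolone (61.5%, against 51.5%). With lists of equal length by score, the counts of 6am and 6pm came to 2 of 10 and 2 of 14. Over all conditions 6 of the 21 GR regions were listed for WT GR and in no GRdim list: Irs1-C, Irs1-E, Irs1-F, Irs1-H, Irs2-B and Irs2-M. The share of such regions over the whole series is not given here. At Irs1-E, Irs1-F, Irs2-B and Irs2-M the WT score was at most 2.81. ChIP-exo listed GRdim borders at Irs1-E (9 tags after prednisolone), Irs1-F (10 tags at 6pm) and Irs2-M (15 tags after prednisolone). None was listed within 100 bp of the centre at Irs1-C, Irs1-H or Irs2-B. The one region listed in GRdim and in no WT list was Irs2-G, with 2.39 at 6pm (1 of 14 GRdim peaks of 6pm absent from WT, 7.14%, against 5.34%), and it lies 275 bp from the WT peak of Irs2-F. At 6am and after prednisolone 0 of 9 and 0 of 5 GRdim peaks were absent from WT (13.8% and 34.9% of the whole lists).

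After prednisolone no GRdim peak was listed in the Irs2 window. The 6am list had 4 there, Irs2-C with 4.20, Irs2-J with 2.53, Irs2-F with 2.39 and Irs2-H with 2.31, and the prednisolone list had 0. ChIP-exo still listed 18 GRdim borders in this window after prednisolone, against 13 at 6am and 14 at 6pm. The whole GRdim border lists held 35220, 14391 and 35658 borders in that order. At 6am and after prednisolone, GRdim borders within 100 bp of the centre summed to 1.52 and 0.177 RPM at Irs2-C. The sums were 1.3 and 0.553 RPM at Irs2-F, 0.79 and 1.22 RPM at Irs2-H, and 1.2 and 1.24 RPM at Irs2-J. Over the 3 windows 6 of 9 GRdim peaks of 6am were not listed after prednisolone (66.7%, against 35.2% of the whole list), the other 2 being Igfbp1-D and Igfbp1-E. New GRdim peaks were at Irs1-B with 2.01 and Irs1-G with 2.12, 2 of 5 (40%, against 35.7%). At 6pm 6 of 14 GRdim peaks had no 6am peak (42.9%, against 60.2%). Of the GRdim peaks, those with a WT C/EBPβ peak under the same condition were 7 of 9 at 6am (85.2% of the whole list), 13 of 14 at 6pm (89.5%) and 5 of 5 after prednisolone (77.7%).

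ChIP-exo uses an exonuclease that digests each strand up to the crosslinked protein, so that a border is read on either side. The WT lists held 151 borders in the windows at 6am, 106 at 6pm and 116 with prednisolone. The whole WT lists held 66573, 54636 and 49189 borders. GRdim had 22, 42 and 43 borders in the windows, of 14391, 35658 and 35220 in the whole lists. WT libraries had 55.7, 43.1 and 54.7 M tags. GRdim libraries had 31.6, 43.8 and 45.2 M tags, the one of 6am being the shallowest of the 6. Borders of both strands within 100 bp of the peak centre marked 13 of 15 WT peaks at 6am (86.7%, against 85.9% of the whole list), 14 of 19 at 6pm (73.7%, against 45.5%) and 11 of 13 after prednisolone (84.6%, against 79.2%). In GRdim they marked 6 of 9 (66.7%, against 43.4%), 5 of 14 (35.7%, against 52.3%) and 3 of 5 (60%, against 80.8%). With borders of 20 or more tags alone, the counts came to 5, 9 and 4 in WT and 0 in each GRdim list. The borders outside any of the 30 regions were few, 23 of 151 in WT at 6am and 8 of 116 after prednisolone, with 7 and 2 of them over 500 bp from a region centre.

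Irs1-C, Irs1-H and Irs2-C had a narrow pair of borders that recurred between libraries. At Irs2-C the strongest plus-strand border was chr8:10940033-10940042 in each WT library, with 117, 109 and 111 tags at 6am, 6pm and with prednisolone. The strongest minus-strand border, of 111, 89 and 111 tags, lay 12, 13 and 11 bp further along. At Irs1-C, chr1:82185201-82185409, the strongest plus-strand border was chr1:82185292-82185301 in each WT library, with 55, 46 and 122 tags, and the minus-strand border was 12, 13 and 11 bp away with 42, 52 and 63 tags. At Irs1-H, chr1:82236076-82236300, the pair was 11 bp apart at 6am (17 and 41 tags) and 9 bp apart after prednisolone (58 and 48 tags), and the 6pm library had no border.

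These 3 were the window peaks with the same pair in both states. Among 10 WT peaks of the windows kept after prednisolone with both strands marked in both libraries, the strongest borders of 6am and of prednisolone lay within 2 bp of each other on each strand at 3 (25.2% of 2449 such peaks of the whole list). Pairs of 10 to 12 bp were the strongest at 3 of 13 WT peaks of 6am (10.3% of the whole list), 0 of 14 at 6pm (5.38%) and 3 of 11 after prednisolone (13.6%). The peaks were Irs1-C, Irs1-H and Irs2-C at 6am, and Irs1-C, Irs2-C and Igfbp1-C after prednisolone. At 6pm the pairs of Irs1-C and Irs2-C were 13 bp apart and so fell just outside that range. Taking the closest opposite borders in place of the strongest gave 3 pairs in that range in place of 6. In GRdim they were the strongest at 0 of 6, 0 of 5 and 0 of 3 (5.79%, 3.39% and 5.52%). No GRdim library had a border within 100 bp of the centre of Irs1-C or Irs1-H. At Irs2-C GRdim had 3 borders at 6am, the strongest of 17 tags on each strand and 47 bp apart, none at 6pm and 1 of 8 tags after prednisolone.

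**Figure D3:**
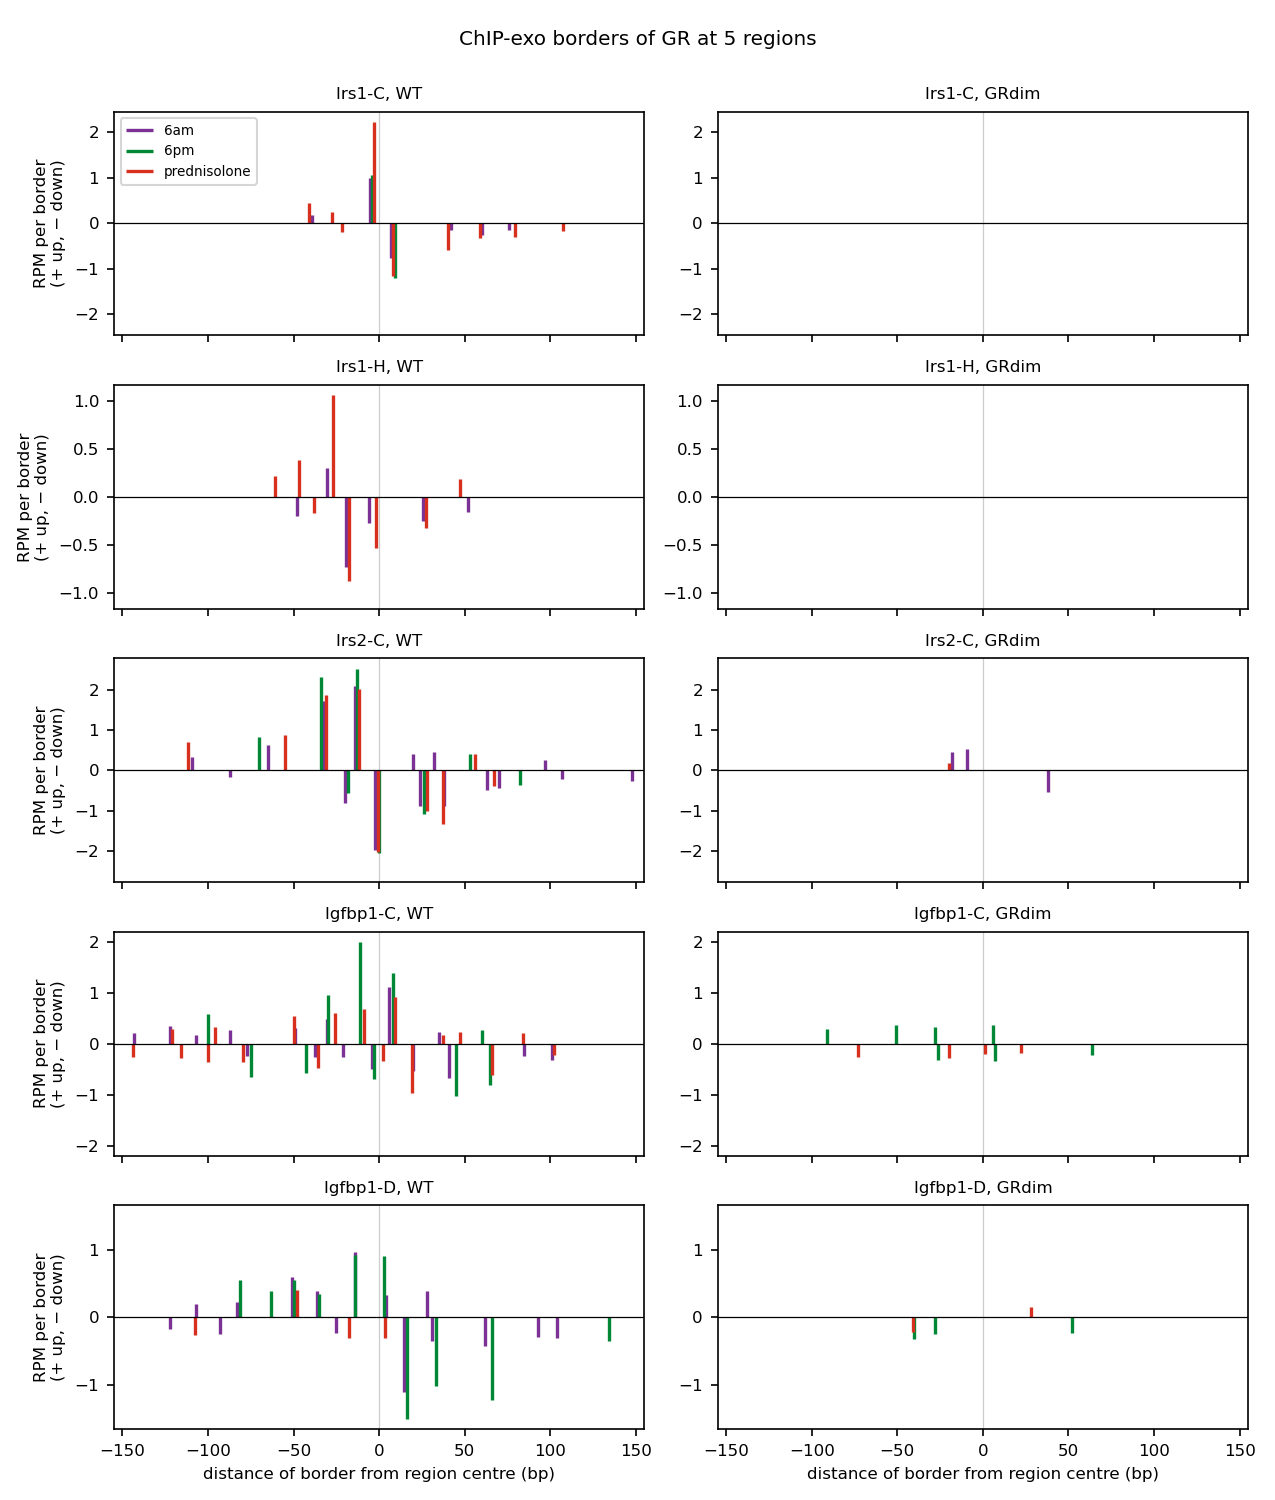
Listed ChIP-exo borders of GR at Irs1-C, Irs1-H, Irs2-C, Igfbp1-C and Igfbp1-D (rows) in WT (left) and GRdim (right): the horizontal axis is the distance from the region centre in bp, the vertical axis RPM per border, plus strand upwards and minus strand downwards, coloured by condition and drawn side by side with a small offset. WT borders at Irs2-C and Irs1-C form a pair 11 to 13 bp apart in each of the 3 libraries, and the GRdim panels of Irs1-C and Irs1-H are empty.

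In the Igfbp1 window 0 of 4 kept peaks had the same strongest pair, within 2 bp, at 6am and after prednisolone. At Igfbp1-D the strongest pair was 29 bp apart at 6am (54 and 62 tags) and 30 bp apart at 6pm (40 and 65 tags) at positions within 1 bp of each other. After prednisolone the strongest plus-strand border, of 22 tags, was at position 7094706 in place of 7094742 at 6am. A weaker plus-strand border at 7094705 was also listed at 6am (33 tags) and at 6pm (24 tags). On the minus strand the borders at 7094736 and 7094757 tied at 17 tags after prednisolone. The distance of 30 bp for that library holds for the first of them alone. At Igfbp1-C the strongest borders were 35 bp apart at 6am, 56 bp at 6pm and 10 bp after prednisolone (50 and 53 tags), among 12, 10 and 13 borders within 100 bp. At Igfbp1-E, chr11:7097485-7097745, the distances were 9, 17 and 33 bp with at most 37 tags per border. At the other GR regions with both strands marked, among them Irs1-A, Irs1-B, Irs2-J and Igfbp1-A, the strongest borders held at most 39 tags each. Their distances differed among the WT libraries, except that Irs1-F, Irs1-G, Irs2-G and Irs2-M had both strands in a single WT library. Some pairs recurred between genotypes. Irs2-H had 72 bp in WT and 71 bp in GRdim at 6am, and Igfbp1-A 78 bp in WT at 6am and 80 bp in GRdim at 6pm, at positions within 1 bp per strand.

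The summed tags of the borders within 100 bp of a region centre, in RPM, were compared between prednisolone and 6am. Sums hold listed borders alone, so each is a lower limit. In the Irs1 window Irs1-C had 2.46 RPM at 6am and 5.43 RPM after prednisolone, a ratio of 2.21 (95% interval 1.80 to 2.72, exact binomial, counting error only). Irs1-H had 1.92 and 3.75 RPM (ratio 1.95, 1.54 to 2.49). Irs1-F had 0.179 and 0.421 RPM (ratio 2.34, 1.07 to 5.52). The intervals of Irs1-A (ratio 0.868, 0.650 to 1.16) and Irs1-B (1.48, 0.983 to 2.25) included 1, and Irs1-E and Irs1-G had borders after prednisolone and none at 6am.

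In the Igfbp1 window 3 of the 5 regions were at least 2-fold lower. Igfbp1-D had 5.58 RPM at 6am and 1.02 RPM after prednisolone (ratio 0.183, 0.135 to 0.244), Igfbp1-A 3.30 and 0.749 RPM (0.227, 0.158 to 0.320) and Igfbp1-B 1.17 and 0.439 RPM (0.376, 0.225 to 0.609). Igfbp1-C and Igfbp1-E had ratios of 1.27 (1.09 to 1.5) and 1.04 (0.675 to 1.61). In the Irs2 window Irs2-J had 2.46 and 0.165 RPM (0.0669, 0.0300 to 0.131), and 2.66 and 0.530 RPM with borders summed over the whole region (0.200, 0.129 to 0.299). Irs2-F had 2.30 and 0.274 RPM (0.119, 0.0649 to 0.204). Irs2-G was higher after prednisolone, with 0.179 and 0.531 RPM (2.95, 1.4 to 6.80), and had 4.58 (2.28 to 10.2) over the whole region. Irs2-C had 11.2 and 9.95 RPM (0.885, 0.788 to 0.995), and the intervals of Irs2-H (0.979, 0.7 to 1.37) and Irs2-N (1.02, 0.619 to 1.68) included 1.

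Over the 16 window regions with borders in both WT libraries, 3 were at least 2-fold higher after prednisolone (15.1% of 7353 GR regions of the whole series) and 5 at least 2-fold lower (32.5%). The median ratio was 0.999 in the windows and 0.761 over all GR regions. At 6pm against 6am, 5 of 15 regions were at least 2-fold higher (35.9% of 9079) and 0 lower (8.47%), with medians of 1.33 and 1.55. These counts leave out regions with borders in 1 library: Irs1-H had 107 tags at 6am and no border at 6pm, and 3 regions (Irs2-B, Irs2-K and Irs2-M) had borders at 6pm and none at 6am. The highest were Irs1-B with 0.754 and 3.34 RPM (ratio 4.43, 3.12 to 6.41) and Igfbp1-E with 0.807 and 3.36 RPM (4.16, 2.96 to 5.96).

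RPM sums were lower in GRdim than in WT at most of the window regions that had borders in both. Of the 21 GR regions, 8 at 6am, 6 at 6pm and 4 after prednisolone had borders in WT alone, and 0, 1 and 2 in GRdim alone. The shares of such regions over all GR regions are not given here. Each GRdim border list was also shorter than the WT list of the same condition. At 6am 0 of 8 regions with borders in both genotypes were above 1 and 5 were at least 2-fold lower (49.4% of 3950 GR regions were), with 0 at least 2-fold higher (4.58%). At 6pm 8 of 12 were at least 2-fold lower (47.9% of 6907) and 0 higher (7.70%), with a median ratio of 0.355 against 0.525 over all. After prednisolone 8 of 14 were at least 2-fold lower (21.9% of 5682), with a median of 0.389 against 1.1 over all. The lowest ratio was that of Irs2-C, with 0.177 RPM in GRdim and 9.95 RPM in WT (0.0178, 0.00765 to 0.0353), a value at or below which 0.370% of all GR regions lay.

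Irs2-J went the other way. It had 1.24 RPM in GRdim after prednisolone and 0.165 RPM in WT (ratio 7.53, 3.70 to 17.3), and 98.5% of all GR regions had a ratio at or below it. With borders summed over the whole region the values were 1.84 and 0.530 RPM, a ratio of 3.46 (2.25 to 5.49). In WT it had 2.46 RPM at 6am and 1.46 RPM at 6pm, while the GRdim sums were 1.2, 1.07 and 1.24 RPM under the 3 conditions. The ChIP-seq lists did not show the same order: after prednisolone Irs2-J was listed in WT with 2.10, near the lowest score, and not in GRdim. Irs2-F was the other region at least 2-fold higher in GRdim after prednisolone, with 0.553 and 0.274 RPM (2.02, 1.02 to 4.12). They were the 2 of 14 regions at least 2-fold higher (25.2% of 5682).

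**Figure D4:**
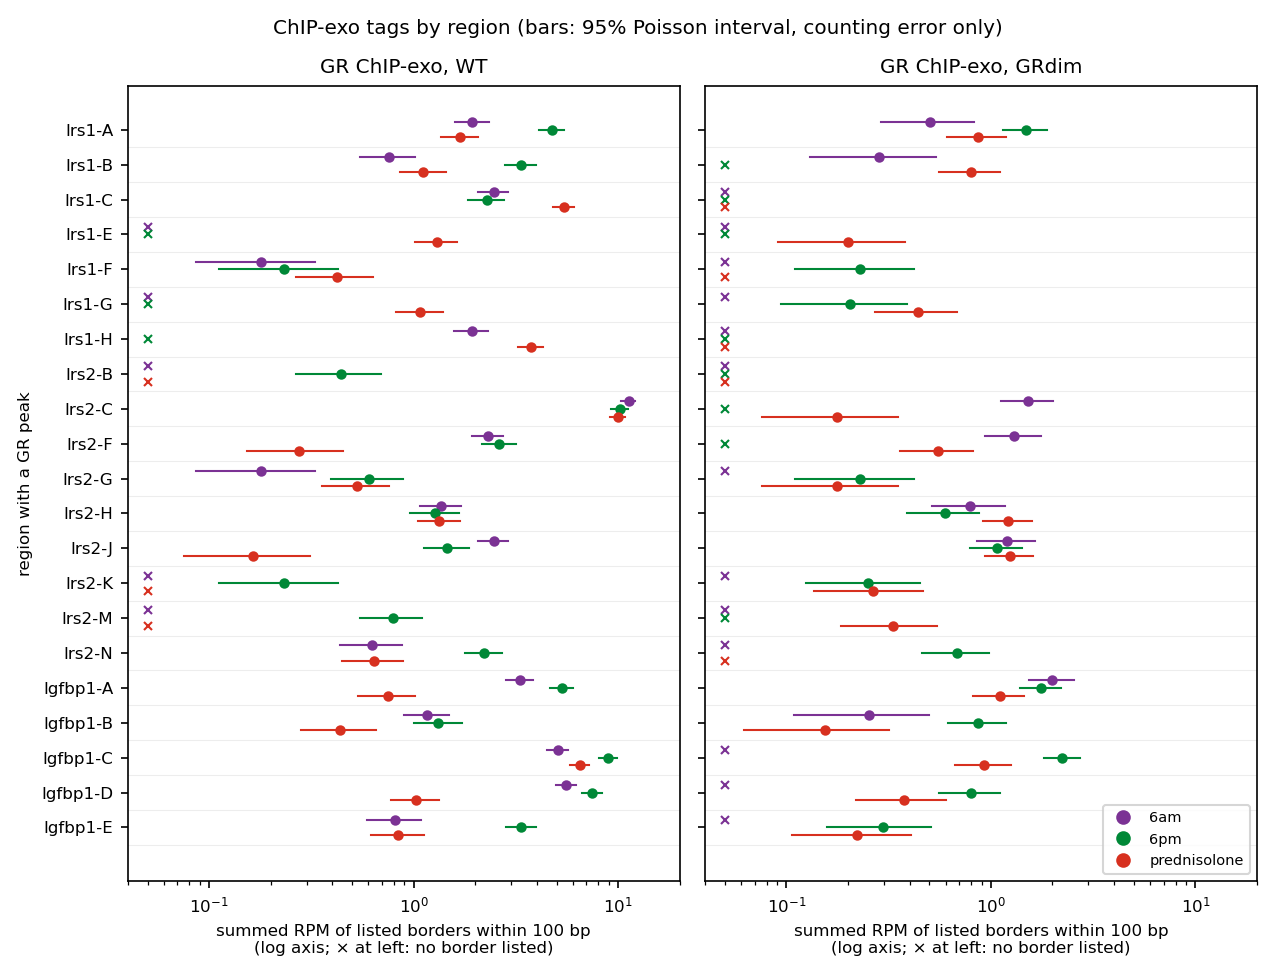
Summed RPM of the listed ChIP-exo borders within 100 bp of the centre of each of the 21 regions with a GR peak (log axis), in WT (left) and GRdim (right), coloured by condition; bars are 95% Poisson intervals of the tag count, and crosses at the left mark libraries without a listed border. Irs2-C lies between 9.95 and 11.2 RPM in WT, and Irs2-J lies at 0.165 RPM in WT and 1.24 RPM in GRdim after prednisolone.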

How the data were processed

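The submitters' processing notes list HOMER, Bowtie and mm9. The step each served, its version and its threshold were not given in the sources used here. The 15 lists used are pools of 2 replicates (per the labels). Not analysed here were 12 input samples and 2 of RNA polymerase II. The ChIP-seq files hold peaks of 200 bp with a deposited score of unstated unit; the depth of those libraries is unknown. Per the file headers, ChIP-exo borders (10 bp) carry a count of tags and an RPM value computed by the authors; the deposited height signal and the other deposited values of each border were not used. Library size is the count divided by the RPM.

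Positions are counted from 1. Peaks were shared at 1 bp of overlap. Border pairs are the strongest border of each strand within 100 bp, and distance is minus-strand less plus-strand position. Across libraries the centre of the highest-scoring GR peak of a region was used. Intervals (95%) cover counting error only. The rule for named regions was, in each window, the 3 regions with the highest WT GR score and the 3 with the highest C/EBPβ score in any list, each C/EBPβ or WT GR peak listed after prednisolone and not at 6am, and each region listed in GRdim and not in WT under the same condition. Further regions were named for their border sums after the values were seen. The windows, genes and lists were chosen with earlier results of these data known. The recurrence of borders, the ratios of RPM (also with borders summed over the whole region) and the promoter motifs were added after seeing the data. Other genes of the pathway were planned and not counted, since they need an mm9 annotation, which was not used here. The code was tested on simulated data, under Python 3.11.15 with scipy 1.17.1, pandas 2.3.3 and numpy 2.4.6, and figures were drawn with matplotlib 3.10.9.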

Additional observations from a re-analysis of the deposited data

How the results depend on the processing

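The lists hold no replicates and ChIP-seq depth is unknown, so a peak that is not listed may be a weak one. Of 101 counts under alternatives 72 stayed within 1.5 times and 29 moved; the causes were not tested. A limit on score or list length also cut the number of peaks examined. With scores of 3 or more, C/EBPβ peaks lost with prednisolone came to 1 of 18 in place of 2 of 20. Those of 6pm without 6am came to 3 of 21 in place of 5 of 24. WT GR peaks new with prednisolone came to 1 of 6 in place of 2 of 13. GRdim peaks new came to 0 of 0 in place of 2 of 5, and lost to 3 of 3 in place of 6 of 9. WT GR peaks with C/EBPβ after prednisolone came to 4 of 6 in place of 10 of 13. Peaks with borders on both strands came to 6 of 6 in place of 11 of 13 in WT after prednisolone. In GRdim they came to 2 of 3 in place of 6 of 9 at 6am, and to 0 of 0 in place of 3 of 5 after prednisolone. With lists cut to equal length, WT GR peaks new with prednisolone came to 4 of 13 in place of 2 of 13. WT GR peaks lost came to 2 of 11 in place of 4 of 15, and those at 6pm without 6am to 1 of 13 in place of 4 of 19. GRdim peaks of 6pm without 6am came to 1 of 6 in place of 6 of 14. WT peaks absent from GRdim came to 2 of 10 in place of 6 of 15 at 6am, and to 2 of 14 in place of 6 of 19 at 6pm. With windows wider by 20 kb per side, the counts were 4 of 32 C/EBPβ peaks lost (12.5%), 8 of 39 of 6pm without 6am (20.5%), 8 of 19 WT GR peaks lost (42.1%), 13 of 32 of 6pm without 6am (40.6%), 15 of 32 of 6pm absent from GRdim (46.9%), 28 of 32 of 6pm with C/EBPβ (87.5%) and 8 of 18 GRdim peaks of 6pm with both strands (44.4%). The first 3 WT GR shares lay nearer to those of the whole lists than in the windows as given. With borders of 20 or more tags, both strands marked 5, 9 and 4 WT peaks in place of 13, 14 and 11, and 0 GRdim peaks in each of the 3 lists. The closest opposite borders gave 3 pairs 10 to 12 bp apart in place of 6. The count of C/EBPβ peaks new with prednisolone stayed within 1.5 times under each alternative run. With borders summed over the whole region, chosen after seeing the data, no ratio with an interval off 1 changed direction. Among the ratios that moved by over 1.5 times was GRdim over WT after prednisolone at Igfbp1-E, 0.711 in place of 0.263. No paired analysis was possible because each list pools its replicates and no test was run.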
